A study of Homo sapiens with 12 samples.

Results

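The mRNAs of 10 genes of the ATF4 stress response were followed in MiaPaca2 cells: ATF4 itself and 9 genes listed as its targets (ATF3, DDIT3, TRIB3, ASNS, CHAC1, SESN2, PSAT1, PHGDH and VLDLR). The 10 genes were chosen by name, with earlier results of these data known. All 10 passed the filter on low counts, out of 17123 genes tested and 63677 Ensembl identifiers listed. MiaPaca2 is an established human pancreatic ductal adenocarcinoma (PDAC) cell line, and RNA-seq counts were available for 12 libraries, 3 in each of 4 groups treated for 24 h. Con received DMSO, and CPT received the Vitamin D analog calcipotriol at 1 µM. GTA+5-Aza cells were epigenetically primed with glyceryl triacetate at 2 mM, an acetate donor, and the DNA methyltransferase inhibitor 5-Aza-2'-deoxycytidine at 1 µM. CPT+GTA+5-Aza cells received all 3 agents at these doses. No group received GTA or 5-Aza alone, so the effects of these agents cannot be told apart, and no group is an ATF4 knockout or a stress treatment. The labels do not say that the 3 libraries of a group came from separate cultures, and the methods give independent samples in general, so p-values measure the spread between these libraries.

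ATF4 is a transcription factor whose protein is made when eIF2α is phosphorylated by kinases that sense amino acid shortage, misfolded protein, heme shortage or viral RNA. Much of its control is at translation, which an mRNA count does not read. The protein binds, with C/EBP partners, the C/EBP-ATF response element (CARE) of genes for amino acid synthesis and uptake, redox control and cell death.

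The CARE core, searched as TGATGNAA on both strands, was found in promoter windows of 3 of the 10 genes, ASNS, CHAC1 and ATF3. These RefSeq windows on GRCh38.p14 run from 250 bases before to 50 after each start, and all 10 genes had at least 1, for 16 windows in all. The core was present in 3.62% of all 35116 windows, or in at least 1 window of 1217 of 27305 genes (4.46%), so a match describes the letters and not a site in use. The 3 matches are shown because ASNS and CHAC1 rose in primed cells and ATF3 did not pass the test, each with the core in capitals, written in the direction of the gene:
ASNS: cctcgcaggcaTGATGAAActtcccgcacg
CHAC1: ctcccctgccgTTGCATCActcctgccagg
ATF3: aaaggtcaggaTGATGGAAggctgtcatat
The ASNS stretch is chr7:97872458-97872487 on the minus strand, and its core begins at position -68 from the RefSeq start, within an exon of the untranslated region of longer GENCODE transcripts. The CHAC1 stretch is chr15:40953251-40953280 on the plus strand, with the core at position -209 on the opposite strand and again in an untranslated exon of other transcripts. The ATF3 stretch is chr1:212565205-212565234 on the plus strand, with the core at position -191 and in no annotated ATF3 exon. In the windows of the other 7 genes these letters were not found, which says nothing of ATF4 binding outside those windows.

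As the DNA methyltransferases that 5-Aza inhibits act at CpG sites, CpG dinucleotides were counted in the same windows. Methylation was not measured in the files used here, so a CpG count does not show which sites were methylated. The first windows ranged from 4 CpGs in ATF3 to 49 in VLDLR, against a median of 14 over all windows. VLDLR had more CpGs than 98.4% of all windows, PSAT1 had 37, and PHGDH had 15. The 250 bases before the start of PSAT1 (chr9:78296875-78297124, plus strand) overlap no annotated PSAT1 exon and hold 30 CpGs, in capitals:
PSAT1: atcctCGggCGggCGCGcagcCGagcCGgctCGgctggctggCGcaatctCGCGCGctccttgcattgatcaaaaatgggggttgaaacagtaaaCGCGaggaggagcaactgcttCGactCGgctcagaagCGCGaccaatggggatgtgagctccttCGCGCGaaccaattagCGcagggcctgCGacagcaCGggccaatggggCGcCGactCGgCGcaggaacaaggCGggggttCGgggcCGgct

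**Figure D1:**
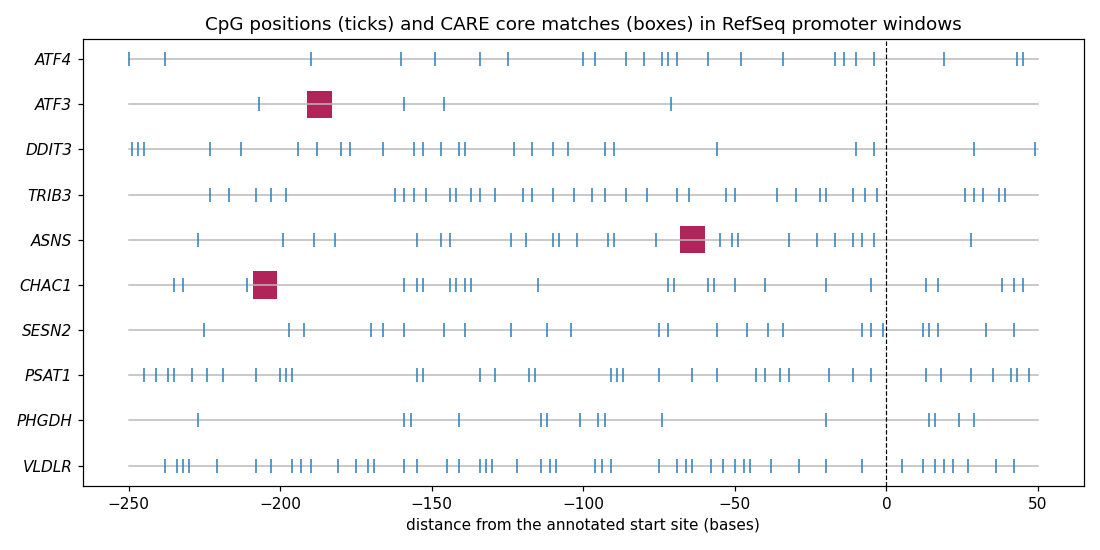
Promoter windows of the 10 genes, with distance from the RefSeq start in bases on the x axis and 1 gene per row. Ticks mark CpG dinucleotides and boxes mark CARE core matches in the first listed window of each gene, with the densest ticks in VLDLR (49) and the fewest in ATF3 (4).

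Total counts per library ran from 16162490 to 21224665. Values below are CPM, counts relative to library size after scaling by edgeR's TMM method. The cells had high KRT8 (1408 to 1738 CPM), KRT18 and VIM, while the epithelial markers EPCAM and CDH1 were at 0 in 10 and 6 of 12 libraries and reached at most 0.245 CPM. The other ductal and epithelial markers lay between, with KRT19 at 28.3 to 41.4 CPM, KRT7 at 0.210 to 2.76 CPM and MUC1 at 1.29 to 3.38 CPM. Of 3 fibroblast markers, COL1A1 reached 2.201 CPM, DCN reached at most 0.0971 CPM and LUM was at 0 in all 12 libraries. Their sum was 0.0476 to 0.275 CPM in unprimed and 1.11 to 2.201 CPM in primed libraries. The part of these low counts in the results was not tested. Endothelial, acinar and islet markers were at 0 throughout, and 3 leukocyte markers summed to at most 0.427 CPM. In such bulk RNA, fewer cells making a transcript and less of it per cell cannot be told apart.

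The 10 genes differed widely in level. Per kilobase of exon in Con, PSAT1 was highest at 57.2 CPM per kb, followed by ATF4 at 42.0, ASNS at 7.85, TRIB3 at 6.30, DDIT3 at 6.22, SESN2 at 3.58, PHGDH at 1.27, CHAC1 at 0.955, ATF3 at 0.730 and VLDLR at 0.0245. The ranges over 3 libraries overlapped between the neighbors TRIB3 and DDIT3, PHGDH and CHAC1, and CHAC1 and ATF3. With the longest transcript in place of all exons, PSAT1 (57.2) and ATF4 (54.3) overlapped too, and PHGDH moved above SESN2. In CPT+GTA+5-Aza cells the order by all exons was the same, and PHGDH (2.74) and CHAC1 (2.38) were the overlapping neighbors.

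The first question was whether epigenetic priming moved these genes in cells without CPT. In GTA+5-Aza against Con, 5 of 10 genes were upregulated by the quasi-likelihood test of edgeR at an adjusted p (Benjamini-Hochberg) under 0.05 (ASNS, CHAC1, PHGDH, TRIB3 and VLDLR), where 9.95% of all genes tested were higher by this rule. None was downregulated, where 7.53% of all genes were. No gene of the 10 was lower at an unadjusted p under 0.05 either, and DESeq2 also called 0 lower. By the study's thresholds (over 1.5-fold, unadjusted p under 0.05) 4 genes were higher (ASNS, CHAC1, PHGDH and VLDLR) against 6.82% of all genes. All 3 primed libraries lay above all 3 Con libraries for 7 genes, against 18.1% of all genes. The median log2 fold change was 0.38 over the 10 genes and 0.01 over all genes tested. As the genes were chosen with earlier results of these data known, the shares over all genes, here and below, are a description.

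Priming was compared a second time in cells that had CPT as well. In CPT+GTA+5-Aza against CPT, 5 of 10 genes were again upregulated (ASNS, CHAC1, PHGDH, PSAT1 and TRIB3), with 9.57% of all genes tested higher and 7.39% lower by the same rule, and 0 of the 10 lower. No gene of the 10 had a negative log2 fold change there, so none was lower at an unadjusted p or by DESeq2. By the study's thresholds 3 were higher (CHAC1, PHGDH and VLDLR) against 6.93% of all genes. Libraries did not overlap for 5 genes, all with the primed side higher, against 16.4% of all genes. The median log2 fold change was 0.42 over the 10 genes and 0.01 over all. Averaged over cells with and without CPT, with 6 libraries on each side, priming raised 7 of the 10 genes, against 16.8% of all genes. This averaged comparison was added after the data had been seen.

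**Figure D2:**
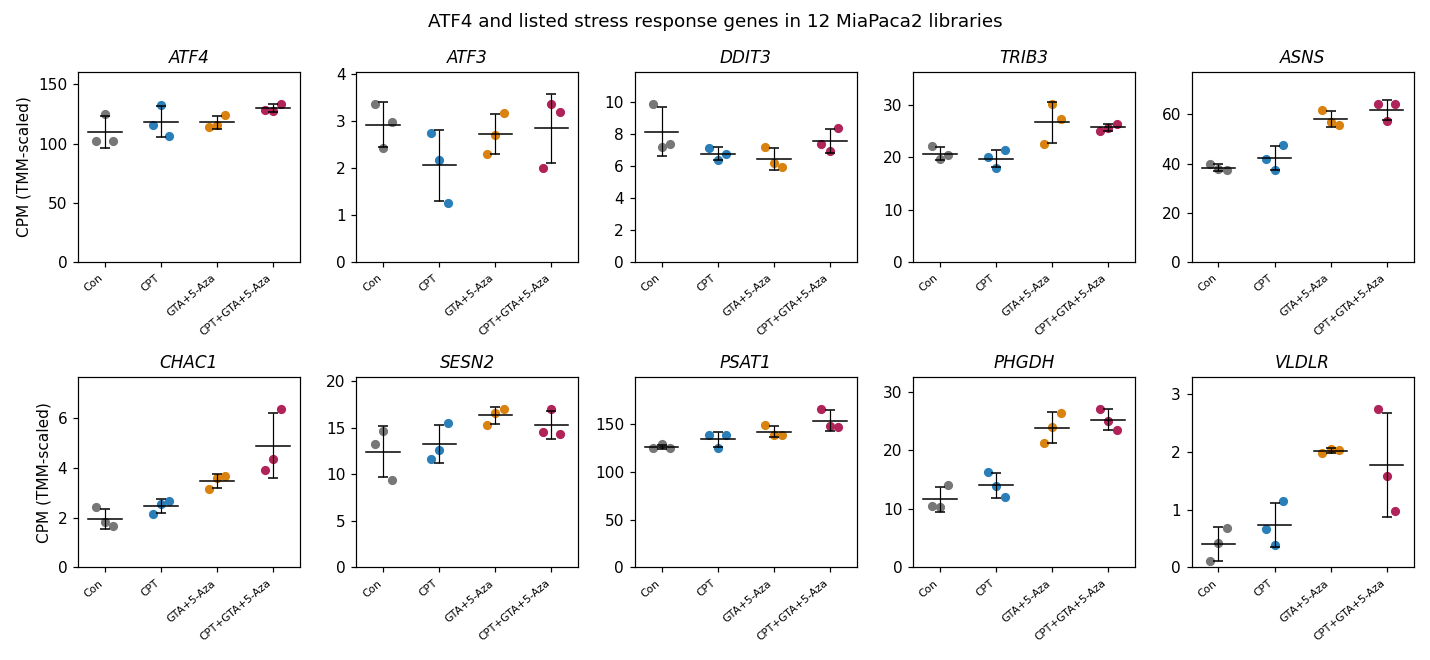
CPM (TMM-scaled, linear y axes from 0) of the 10 genes in the 12 libraries by group on the x axes, with points for libraries, horizontal bars for group means and error bars for 1 SD (n = 3). ASNS, CHAC1, PHGDH and, narrowly, TRIB3 sit higher in all primed than in all unprimed libraries, while ATF3 and DDIT3 overlap between primed and unprimed cells.

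ATF4 mRNA was abundant in every group, and it passed the test in neither priming comparison. It measured 102, 125 and 102 CPM in Con, 116, 133 and 107 in CPT, 114, 116 and 124 in GTA+5-Aza, and 128, 127 and 134 in CPT+GTA+5-Aza. The Con and CPT libraries each had 1 high value (replicate 2), while the GTA+5-Aza libraries overlapped with Con and the CPT+GTA+5-Aza libraries with CPT. Without CPT, priming gave a log2 fold change of 0.10 ± 0.08 (SE, as below), with a 95% interval from -0.06 to 0.27 and an adjusted p of 0.442. This value was 0.21 without Con replicate 2 (adjusted p = 0.0899), 0.048 without Con replicate 1 (adjusted p = 0.807) and 0.017 with each library's GC trend removed (adjusted p = 0.898). With CPT it was 0.13 ± 0.08 (adjusted p = 0.316), and left-out libraries moved this across the threshold once, to 0.21 without CPT replicate 2 (adjusted p = 0.0468). Averaged over CPT levels, the log2 fold change was 0.12 (adjusted p = 0.133), and without Con replicate 2 or CPT replicate 2 the adjusted p was 0.0217 or 0.0184, and it was 0.0440 with scaling by library size alone. ATF4 has processed pseudogenes, but ATF4P1 to ATF4P4 held at most 8 counts in any library.

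ASNS makes asparagine from aspartate and glutamine and is a classic CARE-bearing gene. It measured 40.03, 37.9 and 37.4 CPM in Con and 61.7, 57.1 and 55.6 CPM in GTA+5-Aza. With CPT it measured 41.9, 37.5 and 47.4 CPM in unprimed and 64.4, 57.3 and 64.2 CPM in primed cells. Every primed library was above every unprimed one, and the SD within groups was 1.38 to 4.96 CPM. Priming changed ASNS by 0.60 ± 0.09 on the log2 scale without CPT (1.51-fold, adjusted p = 4.07e-05) and 0.55 ± 0.09 with CPT (1.47-fold, adjusted p = 9.94e-05). Leaving out any of the 12 libraries kept both calls.

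PHGDH, which opens the serine synthesis pathway from glycolysis, had the smallest adjusted p of the 10 genes in the comparison without CPT. It measured 10.5, 10.4 and 14.1 CPM in Con, against 21.2, 24.0 and 26.4 CPM in GTA+5-Aza. It measured 16.2, 13.9 and 11.996 CPM in CPT, against 27.1, 25.1 and 23.5 CPM in CPT+GTA+5-Aza. The lowest primed library (21.2) was above the highest unprimed one (16.2). On the log2 scale PHGDH rose by 1.03 ± 0.14 without CPT (2.04-fold, adjusted p = 9.35e-06) and 0.85 ± 0.14 with CPT (1.80-fold, adjusted p = 0.0001), and both calls held without any single library.

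PSAT1 carries out the next step of serine synthesis and was the most abundant of the 10 genes. It measured 125, 129 and 125 CPM in Con and 149, 139 and 139 CPM in GTA+5-Aza. In CPT it measured 138, 125 and 139 CPM, and in CPT+GTA+5-Aza 166, 148 and 147 CPM. The groups did not overlap within either comparison, but the difference was small. Priming gave a log2 fold change of 0.17 ± 0.07 without CPT, which missed the threshold (adjusted p = 0.0757), and 0.20 ± 0.07 with CPT (adjusted p = 0.0396). The second call was lost when any of 7 libraries was left out (Con 1 and 3, CPT 1 and 2, and CPT+GTA+5-Aza 1, 2 and 3), with an adjusted p of up to 0.244 without CPT+GTA+5-Aza replicate 1, and the first was gained without CPT replicate 2 (adjusted p = 0.0454). The second call was also lost with no filter on low counts (adjusted p = 0.0545) and when the other groups were kept out of the fit (adjusted p = 0.0765). With each library's trend with GC content removed, PSAT1 passed in both comparisons (adjusted p = 0.00237 and 0.00107), and scaling by library size alone gained the first call (adjusted p = 0.0264).

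CHAC1 encodes an enzyme that degrades glutathione. It measured 2.42, 1.81 and 1.65 CPM in Con, 3.15, 3.60 and 3.67 CPM in GTA+5-Aza, 2.14, 2.56 and 2.67 CPM in CPT, and 3.90, 4.37 and 6.36 CPM in CPT+GTA+5-Aza. All primed libraries exceeded all unprimed ones, on counts of 34 to 104 per library, and CPT+GTA+5-Aza replicate 3 was the highest. Its log2 fold change was 0.83 ± 0.28 without CPT (1.77-fold, adjusted p = 0.0375) and 0.98 ± 0.27 with CPT (1.98-fold, adjusted p = 0.0115). The call without CPT was lost without Con replicate 2 or 3 or any of the 3 GTA+5-Aza libraries (adjusted p = 0.0587 to 0.144), and that with CPT without CPT replicate 1 or CPT+GTA+5-Aza replicate 3 (adjusted p = 0.0557 and 0.102). The call without CPT also ended with the GC trend removed (adjusted p = 0.0906) and with no filter on low counts (adjusted p = 0.0703).

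TRIB3, a pseudokinase that restrains AKT and feeds back on ATF4, rose modestly. It measured 22.1, 19.6 and 20.5 CPM in Con, and 22.5, 30.3 and 27.4 CPM in GTA+5-Aza. It measured 20.1, 17.98 and 21.3 CPM in CPT, and 25.1, 25.7 and 26.4 CPM in CPT+GTA+5-Aza. GTA+5-Aza replicate 1 lay just above the highest Con library. On the log2 scale TRIB3 rose by 0.37 ± 0.12 without CPT (adjusted p = 0.0312) and 0.38 ± 0.12 with CPT (adjusted p = 0.0278). Leaving out Con replicate 2 or 3 or GTA+5-Aza replicate 2 or 3 lost the former call (adjusted p = 0.0979 to 0.177), and leaving out CPT replicate 1 or 2 or any CPT+GTA+5-Aza library lost the latter (adjusted p = 0.0572 to 0.0904). Neither call held with the GC trend removed (adjusted p = 0.252 and 0.223).

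VLDLR, a lipoprotein receptor that ATF4 signaling induces under endoplasmic reticulum stress, was low in unprimed cells. It measured 0.105, 0.428 and 0.680 CPM in Con and 0.659, 0.393 and 1.15 CPM in CPT, from 2 to 21 counts. It measured 1.97, 2.05 and 2.03 CPM in GTA+5-Aza, but 2.74, 1.59 and 0.979 CPM in CPT+GTA+5-Aza. The 3 GTA+5-Aza libraries were close together, while CPT+GTA+5-Aza replicate 3 fell below CPT replicate 3. VLDLR had a log2 fold change of 2.29 ± 0.56 without CPT (4.88-fold, 95% interval 2.21 to 10.8, adjusted p = 0.00478). With CPT it was 1.28 ± 0.53 and did not pass (2.43-fold, 95% interval 1.15 to 5.16, adjusted p = 0.0985), except without CPT replicate 3 (adjusted p = 0.0485). The antisense gene VLDLR-AS1, with at most 12 counts, shares 260 of the 16507 exon bases of VLDLR, and the strand setting of the counting is not given in the sources used here.

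SESN2, a sestrin that dampens mTORC1 when leucine is short, had a wide spread within groups. It measured 13.2, 14.6 and 9.37 CPM in Con, against 15.3, 16.6 and 17.0 CPM in GTA+5-Aza. It measured 11.6, 12.6 and 15.5 CPM in CPT, against 14.6, 17.0 and 14.3 CPM in CPT+GTA+5-Aza. Con replicate 3 was the lowest library. The log2 fold change was 0.39 ± 0.15 (adjusted p = 0.0785) without CPT and 0.21 ± 0.15 (adjusted p = 0.410) with CPT, and neither passed. Without Con replicate 2 the former passed (0.53, adjusted p = 0.0337), while it was 0.22 without Con replicate 3 (adjusted p = 0.411) and 0.27 with the GC trend removed (adjusted p = 0.229). Averaged over CPT levels SESN2 passed at 0.30 ± 0.11 (adjusted p = 0.0360), a call that was lost when any of 6 libraries was left out (adjusted p of up to 0.140, without Con replicate 3). It was also lost with the GC trend removed, at 0.18 (adjusted p = 0.218, and 0.238 with the replicate block as well).

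The transcription factor genes DDIT3 and ATF3 passed no test. DDIT3, which encodes the pro-apoptotic factor CHOP, measured 9.88, 7.19 and 7.33 CPM in Con and 7.20, 6.20 and 5.92 CPM in GTA+5-Aza. It measured 7.14, 6.34 and 6.76 CPM in CPT and 7.39, 6.92 and 8.38 CPM in CPT+GTA+5-Aza. The log2 fold change was -0.33 ± 0.18 without CPT (adjusted p = 0.219) and 0.16 ± 0.18 with CPT (adjusted p = 0.603). Of the exon bases of DDIT3, 27.2% lie opposite exons of MARS1, a gene of the same pathway with 1843 to 2514 counts per library, and without a known strand setting the values of DDIT3 are uncertain. MARS1 itself differed by -0.03 on the log2 scale in GTA+5-Aza against Con (adjusted p = 0.840).

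ATF3, an early stress factor that ATF4 induces, was low in all groups at 23 to 64 counts per library. It measured 3.36, 2.43 and 2.96 CPM in Con, 2.75, 2.16 and 1.25 in CPT, 2.29, 2.70 and 3.16 in GTA+5-Aza, and 2.01, 3.35 and 3.18 in CPT+GTA+5-Aza. All 4 groups overlapped. The log2 fold change was -0.10 ± 0.31 without CPT (95% interval -0.74 to 0.54, adjusted p = 0.876) and 0.46 ± 0.32 with CPT (-0.19 to 1.12, adjusted p = 0.367). A 1.5-fold change was thus inside each interval, downward without CPT and upward with CPT.

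In the next comparison, CPT was set against its vehicle. In CPT against Con, 0 of the 10 genes passed the adjusted threshold (0% of all genes tested), and 0 had an unadjusted p under 0.05, where 4.28% of all genes did. DESeq2 called 0 as well. In primed cells, CPT+GTA+5-Aza against GTA+5-Aza, 0 of the 10 passed (0% of all genes) and 0 had an unadjusted p under 0.05 (2.71% of all genes), with 0 by DESeq2. The smallest unadjusted p was 0.0745, for CHAC1 in primed cells, where the log2 fold change was 0.49 ± 0.26 and all 3 libraries were higher with CPT. In unprimed cells it was 0.0774, for PHGDH at 0.26 ± 0.14. All 3 ATF4 libraries of primed cells were higher with CPT as well (0.14 ± 0.08, unadjusted p = 0.102). The share of all genes separated in this way was not counted. The 95% intervals of ATF4 (-0.06 to 0.28 and -0.03 to 0.31), PSAT1 (-0.05 to 0.22 and -0.02 to 0.25) and ASNS (-0.05 to 0.33 and -0.09 to 0.28) stayed under a 1.5-fold change in either direction. Those of TRIB3, SESN2 and PHGDH did so too. Those of VLDLR (-0.39 to 2.03 and -1.19 to 0.83) and CHAC1 (-0.25 to 0.91 and -0.05 to 1.02) reached beyond a 1.5-fold change. So did those of ATF3 (-1.15 to 0.15 and -0.58 to 0.71) and DDIT3 (-0.63 to 0.10 and -0.14 to 0.60). Larger changes of VLDLR, CHAC1, ATF3 and DDIT3 thus lie within their intervals.

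The test of whether CPT acted differently in primed cells, the interaction of CPT and priming, called 0 of the 10 genes (0% of all genes), with 0 at an unadjusted p under 0.05 (2.63% of all genes) and 0 by DESeq2. DDIT3 had the smallest p, 0.0604, with an interaction of 0.50 ± 0.25 on the log2 scale. Its 3 CPT libraries lay below its 3 Con libraries, while the primed groups overlapped. For CPT against Con, the share of all genes with such a separation was not counted. VLDLR had the widest interval, from -2.58 to 0.57.

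The cells with all 3 agents were last compared with vehicle. In CPT+GTA+5-Aza against Con, 6 of 10 genes were upregulated, against 9.62% of all genes tested, namely ASNS (0.69 ± 0.09), ATF4, CHAC1, PHGDH (1.11 ± 0.14), PSAT1 (0.28 ± 0.07) and VLDLR (2.11 ± 0.56). CHAC1 rose 2.48-fold (adjusted p = 0.00119). TRIB3, which was called in each priming comparison, did not pass here (0.31 ± 0.12, adjusted p = 0.0725). For ATF4 all 3 libraries were above those of Con, a separation whose share over all genes was not counted. ATF4 passed here at 0.24 ± 0.08, a 1.18-fold rise with an adjusted p of 0.0414. That call was lost without any of 7 libraries (Con 1 and 3, CPT 1, GTA+5-Aza 1 and CPT+GTA+5-Aza 1, 2 and 3), with an adjusted p of up to 0.208, and with the GC trend removed (adjusted p = 0.0802). VLDLR lost its call without Con replicate 1 or CPT+GTA+5-Aza replicate 1 (adjusted p = 0.0574 and 0.0872). As this comparison shares its libraries with the others, it is not an independent repeat of them.

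**Figure D3:**
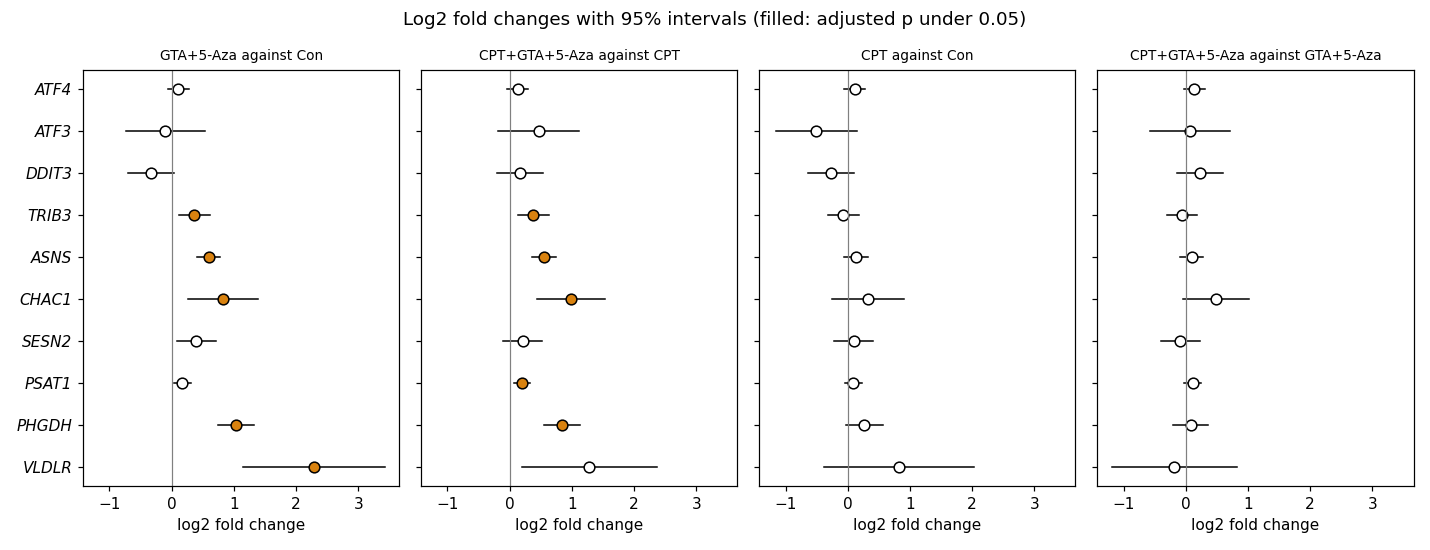
Log2 fold changes (x axes) of the 10 genes (rows) in 4 comparisons, with points for the edgeR estimates, lines for 95% intervals and filled points for an adjusted p under 0.05. Filled points mark 5 genes in each of the 2 priming comparisons on the left and 0 in the 2 CPT comparisons on the right.

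Other genes of the pathway were read from 8 lists, with counts in GTA+5-Aza against Con at an adjusted p under 0.05. By this rule, 9.95% of all genes tested were higher and 7.53% were lower. Among 11 further enzymes of amino acid and folate metabolism, 3 rose and 1 fell. The folate enzyme ALDH1L2 rose by 1.64 on the log2 scale, from 2.06 ± 0.24 to 6.42 ± 0.76 CPM (SD, n = 3), and CBS of transsulfuration and GPT2, which makes alanine, both rose by 0.38. MTHFD1L, of the mitochondrial folate pathway, was the member that fell, with a log2 fold change of -0.43. PSPH, the last enzyme of serine synthesis, was at -0.17 and did not pass (adjusted p = 0.0953). DESeq2 called 3 genes of this list higher and 2 lower.

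Of 9 amino acid transporters, 2 rose and 2 fell, against 9.95% and 7.53% of all genes. SLC7A11, the cystine importer and a well-known ATF4 target, was at 112 ± 4.83 CPM in Con and 72.6 ± 4.79 CPM in GTA+5-Aza (log2 fold change -0.63, adjusted p = 1.46e-05). SLC38A2, a glutamine and alanine carrier, also fell, at -0.22. SLC43A1, which carries large neutral amino acids, rose by 1.16 (adjusted p = 0.000213) and SLC1A5, a glutamine carrier, by 0.25. In CPT+GTA+5-Aza against CPT the transporters again split 2 and 2, where 9.57% of all genes were higher and 7.39% lower.

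Of 12 aminoacyl-tRNA synthetases, AARS1 rose by 0.19 and 2 fell, WARS1 at -0.39 and NARS1 at -0.26, and YARS1 was at -0.16 (adjusted p = 0.0920). The list's median was -0.04. Of 20 stress regulators and secreted factors, 15 were tested, and 4 of them rose and 1 fell. Beside both lists stand 9.95% of all genes higher and 7.53% lower. TNFRSF10B, the death receptor DR5, rose by 0.46, CEBPB, a binding partner of ATF4, by 0.71, and EIF4EBP1, a brake on translation, by 0.48, and the other riser was JDP2, described with the relatives of ATF3. ATF5 was the one that fell (-0.22, adjusted p = 0.0283). NUPR1, STC2, ADM2, FGF21 and INHBE had at most 15 counts in any library and were not tested.

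Upstream of ATF4, 17 genes for eIF2 kinases, eIF2, eIF2B and phosphatase subunits split 1 higher and 5 lower in GTA+5-Aza against Con (median of the list -0.11). Of all genes tested, 9.95% were higher and 7.53% lower. EIF2S1, which encodes eIF2α, was at -0.29 (adjusted p = 0.00105), the kinase gene EIF2AK4 (GCN2) at -0.29, EIF2B3 at -0.33 and EIF2S2 at -0.18. Of 19 genes of the ATF6 and XBP1 arms of the unfolded protein response, 0 rose and 1 fell, with the same counts by DESeq2, where 8 had an unadjusted p under 0.05 in edgeR, against 29.4% of all genes tested. That gene was HSPA5, the main chaperone of the endoplasmic reticulum, at 622 ± 21.2 CPM in Con and 538 ± 18.7 CPM in GTA+5-Aza (-0.21, adjusted p = 0.00973). Its neighbors by p were SEL1L (-0.23, adjusted p = 0.0988), CALR (0.13, adjusted p = 0.102) and ERN1 (-0.30, adjusted p = 0.104).

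Among 13 paralogs and close relatives of the 10 genes, 11 were tested. Of these, 3 rose and 1 fell, against 9.95% and 7.53% of all genes. They were CEBPB, ATF5 and JDP2, all also counted among the stress regulators and secreted factors, and TRIB1, a pseudokinase relative of TRIB3, which rose by 0.81 (adjusted p = 0.0367). JDP2, a repressor related to ATF3, rose by 1.60, with group means of 0.559 and 1.70 CPM. SESN3 and BATF3, with at most 17 counts, were not tested. The list of immediate early genes, which often rise with ATF3, had 5 of 9 higher and 1 lower, against the same shares of all genes. Its median was 0.67. EGR1 rose by 1.21, IER3 by 1.44, JUN by 0.67 and JUNB by 0.88, while ATF3 itself was at -0.10. In CPT against Con, in CPT+GTA+5-Aza against GTA+5-Aza and in the interaction, 0 genes of the 8 lists passed in edgeR, and 0 in DESeq2. At an unadjusted p under 0.05, CPT against Con held 2 of 11 enzymes, against 4.28% of all genes. At the same cut, CPT+GTA+5-Aza against GTA+5-Aza held 2 of 9 transporters and 2 of 15 stress regulators, against 2.71% of all genes. The interaction held 1 of 15 stress regulators, against 2.63% of all genes. Every other list held at most 1 gene in each of these tests.

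**Figure D4:**
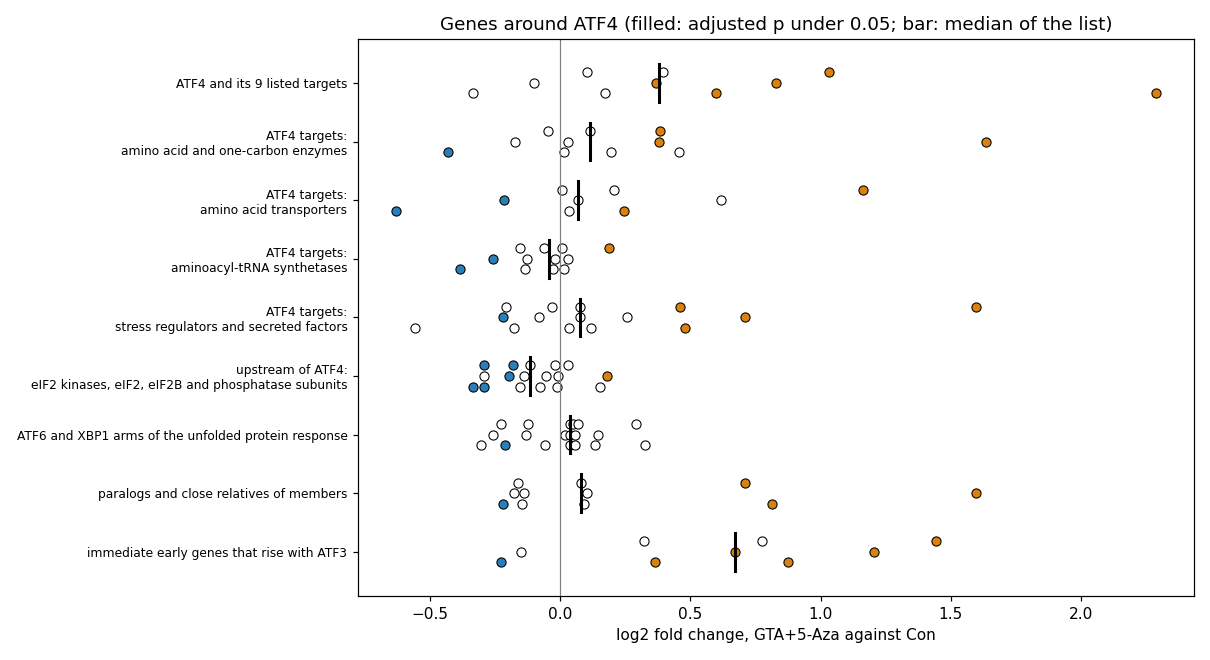
Log2 fold changes of GTA+5-Aza against Con (x axis) for the 10 genes (top row) and the tested genes of 8 lists (other rows), with filled points for an adjusted p under 0.05 (orange higher, blue lower) and bars for list medians. The 10 genes have a median of 0.38, the immediate early genes 0.67, and the genes upstream of ATF4 -0.11.

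Over the 12 libraries, the genes whose log2 CPM was most like that of ATF4, among 10352 genes with a mean log2 CPM above 3, were PPP1R18 (Pearson r = 0.957), NDUFA2 (0.939), NUDT1 (0.931), MC1R (0.916) and ELOF1 (0.912). Those most like the mean of the 10 genes were BCORL1 (0.986), UCA1 (0.985), PYGL (0.984), KCTD15 (0.984) and PXN-AS1 (0.984). Among the 10 genes, ASNS and PSAT1 were at 0.888, ASNS and CHAC1 at 0.877 and ASNS and PHGDH at 0.869, whereas ATF4 was at 0.388 with ASNS and DDIT3 at -0.110 with ASNS. These are descriptions over 12 libraries in 4 groups, which share the treatments and each library's scaling.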

How the data were processed

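The files held raw counts per Ensembl gene for 12 MiaPaca2 libraries, which the authors made with Trim Galore, HISAT2 2.2.1 on GRCh38 and HTSeq, per the labels. These deposited counts were not normalized, and their strand setting and annotation release are not given in the sources used here. Symbols came from GENCODE v44, which holds 52181 of 63677 identifiers and 99.0% of the counts. The other 11496 identifiers kept their Ensembl identifier as a name, and 0 rows held totals or unassigned reads.

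Counts were fitted in R 4.3.3 with edgeR 4.0.16 (filterByExpr, TMM, glmQLFit, glmQLFTest), with all 12 libraries in 1 fit, p-values adjusted over all 17123 genes tested by Benjamini-Hochberg, and the study's thresholds given beside. The study's methods name edgeR but no filter. On simulated counts for GTA+5-Aza against Con (16767 genes), the share recovered was 31.7% for a change of 1.3-fold, 55.2% for 1.5-fold and 62.7% for 2-fold. The simulation changed 200 genes, whereas 1703 genes were called higher and 1290 lower in the data. The adjusted threshold is stricter with fewer changed genes, so these shares do not give the recovery in the data. No library repeated another of its group (chi-square of 3.90 to 17.2 for each degree of freedom).

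All 10 genes are named, and up to 4 genes per list with the smallest p in GTA+5-Aza against Con. MARS1 was named for its overlap, and PSPH and the untested genes after their values were seen. The members and lists were chosen with earlier results of these data known. Alternatives were other scalings, filters and tests (DESeq2 1.42.0, likelihood ratio, glmTreat), only the groups compared, the replicate number as a block, removal of GC trends, and leaving out each library.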

Additional observations from a re-analysis of the deposited data

How the results depend on the processing

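The number of the 10 genes called in GTA+5-Aza against Con was 5, and it stayed between 4 and 6 under other scalings, filters, DESeq2, the likelihood ratio test and GC trend removal. Testing against a fold change of 1.5 (edgeR's glmTreat), which asks for a larger change, left 1 there (PHGDH), 0 for priming in cells with CPT, 1 for all 3 agents against Con and 2 for the priming effect averaged over CPT levels. Leaving out each library gave 3 to 6, 2 to 6, 4 to 6 and 6 to 8 genes in these 4 comparisons. The CPT comparisons and the interaction gave 0 in every setting run. ASNS and PHGDH kept their calls in both priming comparisons under every alternative except glmTreat, where PHGDH alone kept its call without CPT.

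The replicate numbers did not pair the libraries across all 4 groups: 3 of 18 same-numbered pairs had a correlation of deviations over 0.1 (-0.377 to 0.420). Those 3 pairs joined replicate 2 of Con with CPT (0.420), Con with CPT+GTA+5-Aza (0.163) and CPT with CPT+GTA+5-Aza (0.183). Replicate 2 of GTA+5-Aza was negative with replicate 2 of Con (-0.276), CPT (-0.377) and CPT+GTA+5-Aza (-0.164). Of 36 different-numbered pairs, 9 were over 0.1 (-0.383 to 0.366), and a library matched its own number best in 12 of 36 cases. Some libraries of different groups thus shared deviations that a block on the replicate number does not take up. With the replicate block the counts of genes called stayed at 5 for priming without CPT, 5 with CPT, 6 for all 3 agents against Con, 7 for the averaged effect and 0 elsewhere, and with the GC trend also removed they were 4, 4, 5, 5 and 0.

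Signs reversed only for log2 values that had passed no test, each when 1 library was left out, and the cause was not tested. For priming without CPT, ATF3 ran from -0.22 to 0.0069. For CPT in unprimed cells, SESN2 ran from -0.071 to 0.23. For CPT in primed cells, ATF3 ran from -0.075 to 0.26, TRIB3 from -0.17 to 0.045 and VLDLR from -0.65 to 0.10. For all 3 agents against Con, ATF3 ran from -0.17 to 0.16 and DDIT3 from -0.19 to 0.053. In the interaction, ASNS ran from -0.13 to 0.047, ATF4 from -0.081 to 0.11, CHAC1 from -0.077 to 0.29, PSAT1 from -0.033 to 0.059 and TRIB3 from -0.097 to 0.11. Counts per library ran from 2 to 52 for VLDLR, 23 to 64 for ATF3 and 34 to 104 for CHAC1.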
